A study of Arabidopsis thaliana with 6 samples.

Results

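The 200 brightest probe sets of dark-grown Arabidopsis root tips are described here. They were chosen by their measured signal: all 22746 probe sets other than controls were ranked on the lowest signal over the 6 arrays, and the top 200, or 0.879%, were kept. Root tips of 1 cm came from seedlings of Arabidopsis thaliana (thale cress), grown for 7 days in darkness on medium with sucrose at 23 °C. The red light group received 1 h of red light at 12 to 14 µmol per square metre and second, with its peak at 630 nm, and the dark group 1 h of further darkness, with 3 arrays each. Material from several plates was pooled for each array, and the labels name no accession, mutant or transgene for any array. The labels call the samples biological replicates, but do not say how the plates were divided, so p-values measure the spread between these samples.

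In growing plant tissue the mRNA pool is filled by a limited set of genes. Ribosomal proteins, which form the small and large subunits of the cytosolic ribosome, are made in large amounts where cells divide and grow, and the root tip holds the meristem. Plant ribosomal proteins are encoded by small families of near-identical genes. Roots of Arabidopsis are also known for β-glucosidases stored in ER bodies, for lectins that bind them, for wall peroxidases and for metallothioneins.

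Of the 200 members, 72 matched exactly 1 gene in the platform annotation, 21 matched several genes, and 107 were not listed and stay unnamed. Of all 22746 probe sets other than controls, 13513 matched 1 gene, 503 matched several and 8730 were not listed. The members were thus named less often than the array as a whole. The 72 were 72 distinct genes. By their names, 27 of the 200 probe sets may detect more than 1 transcript. Most of the 72 carry only a locus tag, so the roles given below are general knowledge and not part of the annotation. A MAS5 signal depends on the probes as well as on the transcript, so the order of members is one of brightness and not of molecule number. The lowest signals of the last 3 members were 7040.4, 7010.4 and 7007.1, and those of the first 3 probe sets outside were 6997.4 (AT3G04840), 6993.2 and 6970.6. Ribosomal protein genes lay on both sides of that boundary.

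Earlier results of these data had shown 2 classes of array that cross the treatment. They separate on the GAPDH control transcript, as its 3' probe set over its 5' probe set. That ratio was 20.2 to 26.2 in red light 1, dark 1 and dark 3 (the high-ratio class), and 0.981 to 1.45 in red light 2, red light 3 and dark 2 (the low-ratio class). The part of array class in the results was examined by adding it to the fit and by comparing within each class. Of 45 cell type markers listed, only 4 had a named probe set, too few to check the tissue label, and in these bulk samples fewer cells of a type cannot be told apart from less RNA per cell. The root hair expansin gene EXPA18 had signals of 155.7, 1704.3 and 1390.5 in red light 1, 2 and 3, against 478.8, 1720.5 and 647.4 in dark 1, 2 and 3. EXPA7, also of root hairs, had 16.6, 600.4 and 668.2 in red light, against 139.6, 588.1 and 164.5 in the dark. Both expansin genes were lower on each array of the high-ratio class than on any of the low-ratio class. The same held for 28.5% of all tested probe sets. The leaf gene RCA (Rubisco activase) had signals of 67.4 to 259.5 and BBM, a stem cell regulator, of 6.3 to 96.4.

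By the lowest signal, the brightest named member was MT1C, a metallothionein, which is a small cysteine-rich protein that binds metal ions. Its signals were 39859.6, 18386.6 and 24928.6 in red light 1, 2 and 3, against 38978.4, 17475.7 and 47623.6 in dark 1, 2 and 3. PRXR1, a class III peroxidase of the secretory pathway, had 26535.1, 20226.1 and 21548.1 in red light, against 24278.7, 17334.6 and 24114.7 in the dark. For both genes the treatments overlapped, and the lowest signals came from the low-ratio class. AT1G19530, for which no role is given here, followed with 41851.1, 17829.7 and 19586.6 in red light, against 37123.0, 16603.6 and 43111.4 in the dark.

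PYK10 encodes the main β-glucosidase of root ER bodies, which releases toxic products when tissue is damaged. It had 28259.9, 18266.7 and 25242.3 in red light, against 30036.4, 15318.0 and 40657.8 in the dark. JAL34, a jacalin-related lectin of the kind found in complexes with PYK10, had 22568.5, 22460.3 and 20998.9 in red light, against 25637.8, 15165.2 and 26854.5 in the dark. JAL34 was the steadier of the pair, with red light signals that differed by little and a low value in dark 2 only. The rest of the 12 brightest named members were 5 ribosomal protein genes, AT1G51200, of a stress-associated zinc finger family, and AT3G48140, with no role given.

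**Figure D1:**
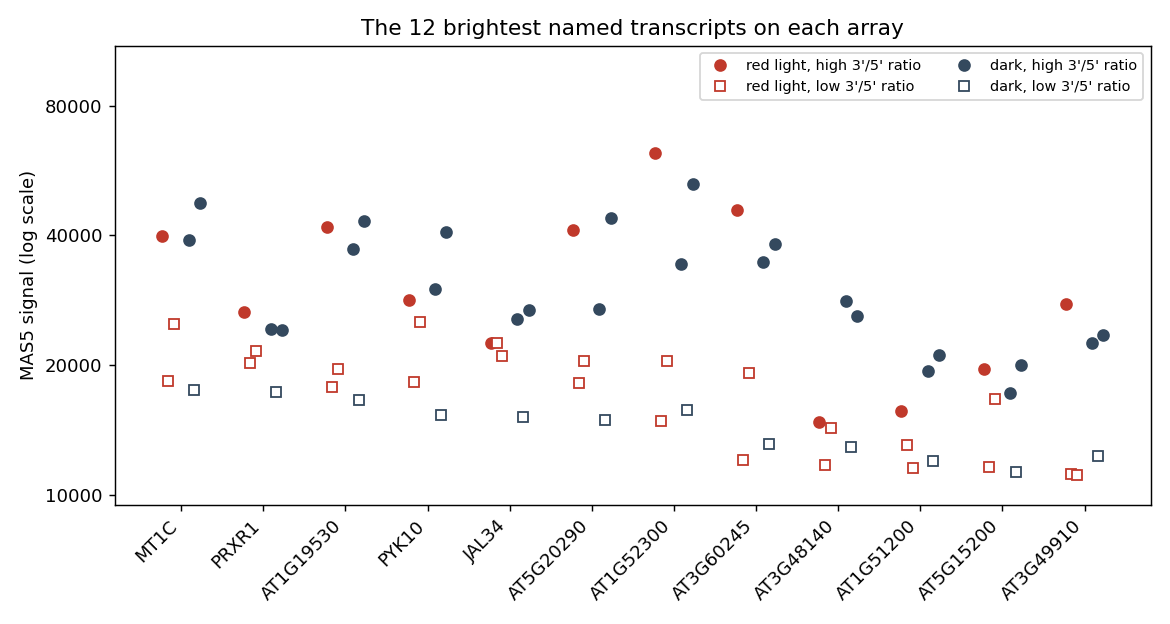
MAS5 signal (log axis) of the 12 brightest named members on each of the 6 arrays, with red light left of dark for each gene; filled circles are arrays of the high-ratio class and open squares those of the low-ratio class, with no averaging. For MT1C the 3 filled circles lie between 38978.4 and 47623.6 and the 3 open squares between 17475.7 and 24928.6, in both treatments.

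Ribosomal proteins were the most frequent function among the named members. Of the 72 named members, 30 (41.7%) were cytosolic ribosomal protein genes, whereas the 128 such genes with a named probe set made up 0.947% of all named probe sets. The list of 222 ribosomal protein genes behind these counts was written from general knowledge, after the member list had been seen. Of the 30 members, 10 belong to the small subunit and 20 to the large subunit, and they cover 27 of the 79 proteins listed. A further 9 of the 21 probe sets with several genes matched listed ribosomal protein genes and no others. A probe set of such a gene may also take up signal from its near-identical copies, so single members of a family are uncertain.

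By the lowest signal AT5G20290, a small-subunit protein gene, stood first, with 41198.8, 18205.5 and 20412.8 in red light, against 27028.2, 14914.6 and 43883.4 in the dark. AT1G52300, of the large subunit, had 62030.3, 14852.6 and 20399.2 in red light, against 34271.3, 15721.2 and 52505.0 in the dark. AT3G60245, also of the large subunit, had 45737.6, 12024.9 and 19197.1 in red light, against 34730.0, 13145.2 and 38217.4 in the dark. In all 3 genes each array of the high-ratio class was above each of the low-ratio class. The same held for 136 of the 200 members and for 22.5% of all tested probe sets. The treatments overlapped in all 3 genes. AT5G15200 (small subunit) and AT3G49910 (large subunit) had lowest signals of 11325.2 and 11104.2.

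Not every ribosomal protein gene was bright. Of the 128, 54 ranked from 201 to 1000, 44 ranked lower than 1000, and the median rank was 518. The dimmest was a copy of a large-subunit protein gene, AT3G10950, with signals of 0.7 to 42.7, while AT3G60245, which encodes the same protein, was a member. AT5G20290 likewise stood beside its copy AT5G59240, whose signals were 96.9 to 315.9. These pairs, chosen after their values were seen, compare different probe sets, so the gap in signal may not be one in transcript number.

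Defence, stress and hormone response genes were next by count, with 10 named members. Roles outside the ribosome were given to members only. No share over all named probe sets is therefore available for this class or the later ones. Besides PYK10, JAL34 and AT1G51200 they were the dehydrins COR47 and AT1G54410, which protect cells during drying and cold, the drought-induced zinc finger gene DI19, the defensin-like gene AT4G22212, the universal stress protein genes AT3G11930 and AT3G17020, and AT4G23670 of the major latex protein family. AT1G51200 had 15662.0, 13063.6 and 11561.8 in red light, against 19432.7, 11974.9 and 21061.4 in the dark. Redox and detoxification held 5 named members, MT1C, PRXR1, the peroxidase gene AT4G30170, AT4G19880 of a glutathione S-transferase family, and AT5G44380, an oxidase of the berberine bridge enzyme family. AT4G19880 had 27870.8, 10490.6 and 9674.9 in red light, against 30080.8, 9146.0 and 28494.1 in the dark. Its values split by array class with a wide gap, at about the same levels in both treatments.

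Protein turnover had 3 named members, all proteases. APA1, a vacuolar aspartic proteinase, had 9694.7, 13996.3 and 17384.9 in red light, against 15228.3, 13470.9 and 13658.1 in the dark. ATSBT5.2, a subtilisin-like protease, had 9221.3, 7340.8 and 9103.0 in red light, against 14633.2, 7622.4 and 16133.4 in the dark. Neither separated the treatments. AT4G16190, a papain-like cysteine protease, varied by 1.25-fold from its lowest to its highest array.

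Central carbon metabolism was present through GAPC2, the cytosolic glyceraldehyde-3-phosphate dehydrogenase of glycolysis, and cICDH, the cytosolic isocitrate dehydrogenase. GAPC2 had 9085.7, 12843.9 and 16553.6 in red light, against 10038.4, 11504.0 and 13436.0 in the dark. cICDH had 10088.5, 13136.7 and 15481.3 in red light, against 9806.5, 12547.7 and 9782.1 in the dark. The lowest signals of cICDH came from the high-ratio class, the opposite of MT1C. Respiration was present through CYTC-1 (cytochrome c) and AT4G37830 (a subunit of cytochrome c oxidase), lipid transfer through AT3G53980 and AT1G48750, and the wall and extracellular space through AT1G78040 and AT4G30450.

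Single named members were AT5G19510, a subunit of a translation elongation factor, SWEET11, a sucrose exporter, WLIM2b, which bundles actin filaments, and AT2G38800, a calmodulin-binding protein. AT5G19510 varied by 1.27-fold over the 6 arrays. The translation factor class thus had 1 named member beside the 30 of the ribosome, but probe sets that are not listed or match several genes could hold more. No role is given here for 12 of the 72.

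The 200 members together held 22.94%, 16.18% and 17.52% of the summed signal in red light 1, 2 and 3, against 22.69%, 14.87% and 24.02% in dark 1, 2 and 3. The arrays of the high-ratio class held more than those of the low-ratio class in both treatments, and the treatments overlapped. These shares are of brightness, and the choice of members used them, so no test is given. The 30 named ribosomal protein genes held 1.99% to 3.49% in red light, against 1.96% to 3.31% in the dark. The 30 named members with another role held 2.27% to 2.79%, against 2.13% to 3.15%. The unlisted members held the greater part, 9.40% to 12.62% against 8.41% to 13.53%.

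**Figure D2:**
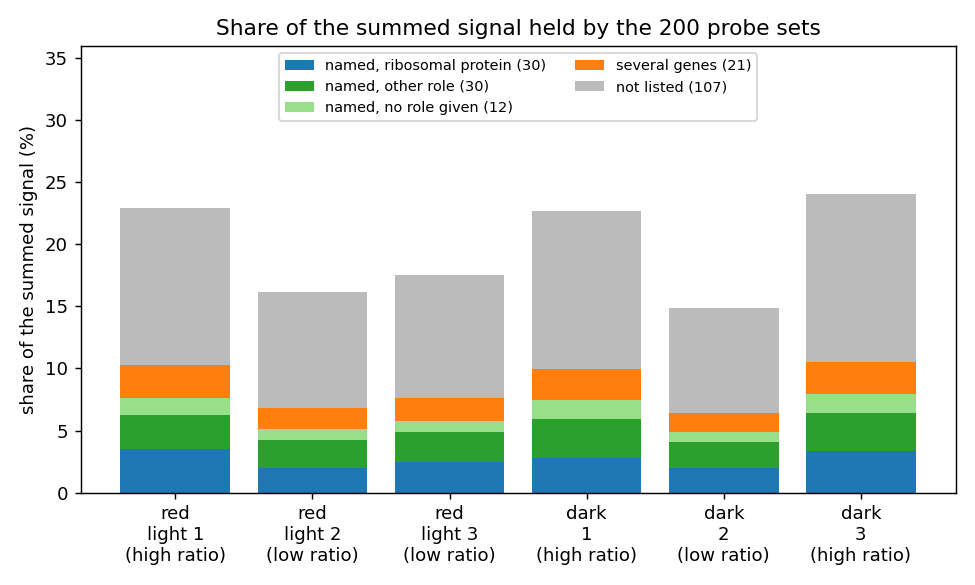
Share of the summed signal of all probe sets that are not controls (vertical axis, %) held by the 200 members on each array (horizontal axis, red light left of dark), stacked by kind of member. Red light 1, dark 1 and dark 3 reach 22.94%, 22.69% and 24.02%, and the 3 arrays of the low-ratio class 14.87% to 17.52%.

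Members differed in how far they varied. The ratio of the highest to the lowest array had a median of 2.16 and ran from 1.13 to 8.69, with 84 members under 2-fold and 2 over 5-fold. One of these 2 was AT3G22240, for which no role is given. It had 55739.0, 11337.6 and 15318.4 in red light, against 49528.1, 9232.9 and 47531.3 in the dark. All 3 arrays of the high-ratio class were above all 3 of the low-ratio class, as for 136 of the 200 members and 22.5% of all tested probe sets.

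No member passed the test between red light and dark. In the fit by group alone, limma called 0 of the 200 members at an adjusted p of 0.05, where 0.0% of the 13647 tested probe sets were called. No member reached an unadjusted p of 0.05 in that fit, against 1.89% of those tested. With array class in the fit, limma again called 0 members, against 0.125% of those tested (17 probe sets). Here 3 members reached an unadjusted p of 0.05, against 6.88% of those tested. A choice by the lowest signal disfavours probe sets that are low in 1 treatment. Among the members, the difference between the array classes, which is not one of treatment, reached 2.37 on the log2 scale, in an unlisted probe set. The part of the choice by lowest signal in the lack of calls was not tested.

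A lack of calls does not show equal levels, so the intervals are given. When array class was included, the 95% interval of the log2 change lay within 1 of 0, which is less than 2-fold either way, for 196 of the 200 members. With group alone this held for 73. The median half-width was 0.43 with array class and 0.89 with group alone. With group alone 146 members had a change below 0, as did 51.7% of those tested, and the median change of the members was -0.18, beside -0.02 over all tested probe sets, and 0.07 with array class, beside -0.03. The sign of the members' median was not stable. With quantile scaling it was -0.04 with group alone and -0.05 with array class, and centred on the members it was 0.02 and 0.03. Without dark 2 the median with array class was -0.06.

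**Figure D3:**
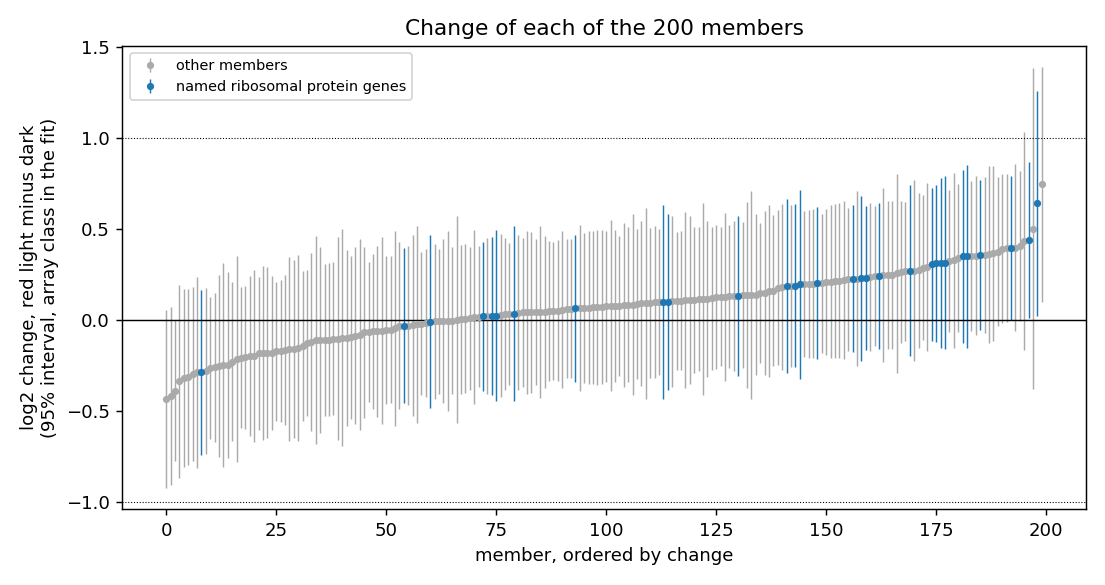
Log2 change of each of the 200 members, red light minus dark, with its 95% interval from the limma fit with array class (vertical axis), in order of the change (horizontal axis); blue marks the 30 named ribosomal protein genes and dotted lines mark a change of 1 either way. The points run from -0.43 to 0.74, and 196 intervals stay within the dotted lines. The same held for 9376 of all 13647 tested probe sets, which are not drawn.

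The members with the smallest p are described next. None passed the test in either fit. With array class only 3 of 200 reached an unadjusted limma p of 0.05, against 6.88% of those tested. They are given as description and show no lean of the members as a whole. AT1G54410, a small dehydrin, had 27437.6, 12661.6 and 13384.7 in red light, against 16899.0, 10585.1 and 8592.4 in the dark. Its change with array class was 0.74 (SE 0.29, n = 3 per group, limma adjusted p = 0.685), and 0.53 (SE 0.43) with group alone. The treatments overlapped, and the change was 1.19 within the high-ratio class but 0.30 within the low-ratio class. AT4G39200, a small-subunit ribosomal protein gene, had 16199.5, 14308.5 and 14860.3 in red light, against 9665.2, 7176.0 and 19063.2 in the dark. The red light arrays were close together and the dark arrays spread to both sides of them. Its change with array class was 0.64 (SE 0.28, limma adjusted p = 0.700). Leaving out 1 array moved it between 0.26 (without dark 2) and 1.02 (without red light 1), the same values as within the high-ratio and within the low-ratio class, and with group alone it was 0.46 (SE 0.40). AT5G35530, of the small subunit, had a change of 0.44 (SE 0.20) with array class and 0.31 (SE 0.30) with group alone. AT3G02080, also of the small subunit, had 0.40 (SE 0.18) with array class but -0.03 (SE 0.52) with group alone, so its direction turned. For both genes the treatments overlapped.

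On the lower side, AT3G48140 had 14771.1, 11756.5 and 14282.6 in red light, against 28115.1, 12913.7 and 26005.0 in the dark. Its change was -0.64 (SE 0.38) with group alone and -0.43 (SE 0.22) with array class, where the limma adjusted p was 0.772. Within the high-ratio class the change was -0.87 and within the low-ratio class 0.005. The fit with array class gave the same 0.005 without red light 1, as only the low-ratio class then holds both treatments. With group alone the change was -0.71 without red light 1. The universal stress protein gene AT3G11930 had a change of -0.31 (SE 0.22) with array class and -0.55 (SE 0.39) with group alone. ATSBT5.2 had -0.32 (SE 0.22) with array class and -0.52 (SE 0.36) with group alone. Within the classes, both were below 0 in the high-ratio class and above 0 in the low-ratio class. AT4G39675, with no role given, had 20221.6, 9547.1 and 8801.6 in red light, against 26861.3, 11290.0 and 29406.9 in the dark. Its change was -0.80 (SE 0.50) with group alone, the lowest of the 200 members in that fit, and -0.39 (SE 0.18) with array class. It was below 0 within the high-ratio class (-0.48) and within the low-ratio class (-0.30). WLIM2b had 7428.2, 7650.3 and 8149.9 in red light, against 9124.6, 8878.8 and 9951.0 in the dark. It did not overlap between the treatments, but its change of -0.26 (SE 0.18, limma adjusted p = 0.839) did not pass the test. The protease gene AT4G16190 was likewise below dark on each red light array. In all, 4 of the 200 members did not overlap, against 6.16% of the tested probe sets. Of these, 2 were above dark and 2 below it, against 2.23% and 3.93% of the tested probe sets.

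The direction of the ribosomal protein genes depended on the fit, and none passed the test. When array class was included, 27 of the 30 members had a change above 0, with a median of 0.21, and 45.8% of all tested probe sets were above 0. Of the 85 tested ribosomal protein genes that were not members, 65 were above 0, with a median of 0.15. With group alone only 11 of the 30 were above 0, with a median of -0.05, where 48.3% of those tested were above 0. With quantile scaling and array class, 21 of the 30 were above 0, with a median of 0.10. In that setting 6693 of the tested probe sets were above 0 and 6897 below. No ribosomal protein gene was called in limma with group alone or with array class. The smallest adjusted p with array class was 0.373, for AT5G58420, which is not a member, at a change of 0.70 (SE 0.20). The 42 named members outside the ribosome list were above 0 in 19 cases with array class, with a median of -0.01. In that fit 134 of all 200 members (67.0%) were above 0. Among them were 70 of the 107 unlisted members and 18 of the 21 that match several genes.

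Many members passed the test between the array classes. With group in the fit, limma called 124 of the 200, against 36.8% of all tested probe sets. In the high-ratio class 121 members (60.5%) were higher, against 14.9% of those tested, and 3 were lower, against 21.9%. The median difference between the classes was 0.71 on the log2 scale, beside -0.07 over all tested probe sets. AT3G22240 differed by 2.24 (SE 0.20), AT1G52300 by 1.63 (SE 0.23) and AT4G19880 by 1.57 (SE 0.18), each with a limma adjusted p of at most 0.000515. At the other end, cICDH differed by -0.43 (SE 0.18), GAPC2 by -0.33 (SE 0.23) and APA1 by -0.29 (SE 0.22), and none of the 3 passed the test. The 3 members called lower in the high-ratio class are not listed in the annotation.

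That direction depended on the scaling of the arrays. The deposited values share a trimmed mean, while the brightest member of each array reached 83731.9 to 105407.1 in the high-ratio class and 25725.4 to 43686.5 in the low-ratio class. After quantile scaling, 28 members were called higher and 45 lower, against 17.4% and 17.9% of all tested probe sets, and the median difference was -0.01. Among the 30 ribosomal members, 20 were called higher and 0 lower as deposited, and 4 higher and 3 lower after quantile scaling. The order of the members changed with class as well. Over the 200 members, Pearson correlations of log2 signals were 0.838 to 0.910 between arrays of 1 class and 0.296 to 0.591 between arrays of different classes. These are correlations across probe sets, which are not independent and share an array. The GAPDH control ratio separates the classes by construction, and the actin control ratio moved with it (71.7 to 138.2 in the high-ratio class, 13.8 to 20.9 in the low-ratio class). The part of what these ratios measure in the members' differences was not tested. In the deposited values the root hair markers EXPA7 and EXPA18 also moved with array class, in the opposite direction to most members. The part of these markers was not tested either. Of all tested probe sets, 28.5% were likewise lower on each array of the high-ratio class.

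**Figure D4:**
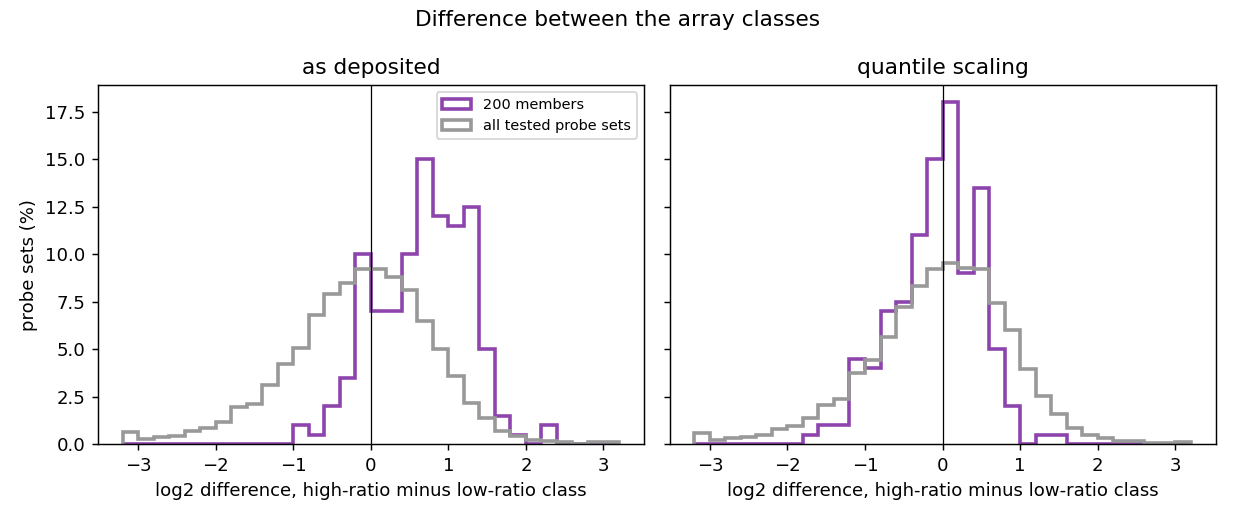
Share of probe sets (vertical axis, %) by the log2 difference between the array classes, high-ratio minus low-ratio, from the limma fit with group (horizontal axis, with values beyond the ends put in the end bins), for the 200 members and for all 13647 tested probe sets. As deposited (left) the members centre on 0.71 and all tested probe sets on -0.07; after quantile scaling (right) the members centre on -0.01.

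The choice of members depended on the arrays used. Ranking by the mean log2 signal kept 173 of the 200, ranking on the 3 dark arrays 179, and ranking after quantile scaling 177. Ranking on the high-ratio class alone kept 145 and on the low-ratio class alone 165, and these class lists of 200 shared 126 probe sets, 63.0% of each. Between red light and dark, limma by group alone called 0 of all tested probe sets. A count of 0 in each of these lists, the top 100 and the top 400 was therefore fixed in advance. With array class, where 0.125% of all tested probe sets were called, each of these lists also held 0.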

How the data were processed

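For each array the authors deposited linear MAS5 intensity values, 1 for every probe set, and MAS5 is named in the submitters' processing notes. Its version and the array design's build are not given in the sources used here. The deposited intensity values had a mean of 500.04 to 500.06 on every array after trimming 2% from each end. Array medians were 150.0 to 176.4. Of 22810 probe sets, 64 controls were set aside.

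Log2 values without a pseudocount were fitted with limma 3.58.1 (trended, robust eBayes; R 4.3.3, statmod 1.5.0), as red light minus dark. Probe sets with a mean above the 40th percentile were tested (13647), and p-values were adjusted over all of them by Benjamini and Hochberg, 2-sided, at 0.05. Precision is limited by having 3 arrays a group. Array class (GAPDH 3'/5' ratio above or below 5) was the term added.

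Genes came from the platform annotation, with symbols and locus tags from RefSeq (TAIR10.1). That annotation gave 1 gene for 13513 probe sets, several for 503 and none for 8730. It holds no descriptions, so the planned keyword classes could not be applied. Roles were assigned from general knowledge after the member list was seen, to 60 of the 72. Promoter and protein sequences were not analysed here.

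Members and lists were chosen with earlier results of these data known. Named were the 12 brightest members, the 2 brightest of each class with at least 3 named members, the 4 with the smallest p in each direction and fit, the 3 with the greatest class difference each way, and named probe sets at the boundary. Other genes were named after their values were seen.

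The alternatives were the replicate number as a block, quantile scaling, a pseudocount of 16, other filters, plain eBayes, array weights, centring on the members, a threshold of 0.1, 1 array left out, and other rules for the members.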

Additional observations from a re-analysis of the deposited data

Results flagged for a closer look

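One of the array's control probe sets detects large ribosomal RNA and was used in no comparison. Its signal was 1376.8 in red light 3, 89.3 in red light 1 and 119.7 in red light 2, against 76.0 to 122.9 in the dark arrays. Groups of 3 arrays are too small for the test of single outlying samples.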

How the results depend on the processing

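Between red light and dark, the count of members called by limma stayed at 0 with the replicate block, quantile scaling, the pseudocount, other filters, plain eBayes, centring on the members and a threshold of 0.1, with and without array class. With group alone and array weights it was 35 of 200 (2 higher, 33 lower), where 2261 of 13647 tested probe sets were called. Of the 35, 34 also differed between the array classes, as did 124 of all 200 members. The lowest weights were 0.205 (red light 1) and 0.388 (dark 2). Within the low-ratio class alone 1 member, AT4G39200, was called, with a lone dark array assumed to vary like the others. With array class, leaving out 1 array gave 0 to 1 members, the 1 being an unlisted probe set called higher without dark 2.

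Over all tested probe sets, group alone gave 0 calls, but 2261 with array weights, 17 with array class, 162 within the high-ratio class, 274 within the low-ratio class and 0 to 15 with 1 array left out, the 15 without red light 1. With array class the count was 17, and 5 with plain eBayes, 38 at a threshold of 0.1 and 6 to 288 with 1 array left out (75, 6 and 9 on leaving out red light 1, 2 or 3, and 288 and 30 on leaving out dark 2 or 3). The causes were not tested. Centring on the members moved the median change of all tested probe sets by group alone to 0.19, against -0.02.

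Between the array classes, 121 members were called higher and 3 lower. These counts were 28 and 45 with quantile scaling, 42 and 49 when centred on the members, and 0 and 0 with a replicate block, which leaves 1 residual degree of freedom. Leaving out 1 array gave 88 to 118 higher and 0 to 11 lower, with 0 without red light 1 and 11 without dark 2. Of all tested probe sets, 14.9% were called higher and 21.9% lower as deposited, and 17.4% and 17.9% with quantile scaling. For the other settings these shares are not given here, so their counts are not read as particular to the members. Replicate numbers are not shown to pair samples. Deviations from the group means gave correlations of 0.58 (replicate 1), 0.64 (replicate 2) and -0.32 (replicate 3). Red light 1 and dark 1 share the high-ratio class, red light 2 and dark 2 share the low-ratio class, and red light 3 and dark 3 differ in class. These correlations therefore cannot tell pairing from array class. The replicate block left 0 calls over all tested probe sets with group alone and 17 with array class. The mean share of the summed signal was 19.7%, and 24.8% with the denominator trimmed.

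With array class, leaving out 1 array moved the change of AT3G48140 between -0.872 and 0.005, and that of AT3G11930 between -0.751 and 0.122. Both upper values came without red light 1 and both lower ones without dark 2. They are the same values as within the low-ratio and within the high-ratio class. With group alone and array weights, AT3G48140, AT4G39675 and AT3G11930 were called, at -0.89, -1.46 and -0.87. In that fit 2261 of 13647 tested probe sets were called. With array class and array weights, the changes of the same genes were -0.45, -0.37 and -0.32, and 0 members were called.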
